A study of Arabidopsis thaliana with 12 samples.

Results

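The mTERF proteins, named after the human mitochondrial transcription termination factor, are encoded in the plant nucleus and work in chloroplasts and mitochondria. They are built of helical repeats that bind nucleic acid, and members of the family act on organelle transcription, RNA splicing and ribosome assembly. In Arabidopsis thaliana, mTERF9 is a chloroplast protein that takes part in the assembly of the chloroplast ribosome. Described here are 3 nuclear genes of the family, AT5G55580 (mTERF9), AT1G61990 and AT1G62010, each measured by a probe whose annotation lists that gene alone. They are 3 of the 691 genes that had such a probe, and each had a single one, so no choice among probes was needed. The genes were chosen by their large log2 fold changes between the CO2 groups in these samples. Their values in that comparison are therefore given as a description, with no test.

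All samples were total RNA of wild-type plants of the Columbia 0 ecotype. Of the 12, the 6 of the first group were from plants at normal CO2 and are labelled day 0. The other 6 were from plants that had spent the last 48 h at 0.003% CO2 by volume and are labelled day 2. CO2 and the time between the groups thus cannot be told apart, and the labels name no tissue and do not say whether replicates were separate plants. The p-values below thus speak only of sample-to-sample spread, part or all of which may be technical.

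Arrays held 3439 probes, and intensities are on the authors' linear scale, on which array means lay near 1. Array medians were 0.489 to 0.576 at normal and 0.343 to 0.373 at low CO2. Over all probes, the median log2 difference of deposited values was -0.60. Log2 fold changes below are of low over normal CO2 after quantile normalization, which brought that median difference to -0.05. Array means lay near 1 in both groups, and whether the authors' scaling set them there is not known. The cause of the shift in medians was not tested. Normalization moved single probes by unlike amounts. The bright probe of AT1G62085, AT1G62110 and AT1G56380 was at -1.42 without scaling and at -1.39 after normalization. The dim probe of AT1G21150, AT5G64950 and AT5G07900 was at -0.83 and -0.09. Of 7 leaf markers, 4 had a probe of 1 gene (LHB1B2, PRK, PSBW and PSAN), and none of the 4 was at 0 in any sample. Of these, PSBW was higher at low CO2, with a log2 fold change of 0.97, while LHB1B2 was at -0.97, PRK at -0.73 and PSAN at -0.19. The sum of the 4 intensities, 18.6 to 29.3 at normal and 26.9 to 49.3 at low CO2, mostly follows the bright PSBW probe, at 9.67 to 13.7 and 22.2 to 40.6. The part of these markers in the results was not tested. The 6 root and 4 seed markers had no probe of 1 gene and were not analysed here. In bulk RNA, fewer cells that express a gene and less of its RNA per cell cannot be told apart.

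AT5G55580, the mTERF9 gene, was dim at normal CO2 and much brighter after 48 h at low CO2. The deposited intensities of normal CO2 replicates 1 to 6 were 0.227, 0.135, 0.123, 0.198, 0.425 and 0.460. Those of low CO2 replicates 1 to 6 were 1.45, 1.35, 0.959, 0.470, 1.44 and 1.56. All normal CO2 values lay below the lowest array median of that group, whereas all low CO2 values lay above the highest array median of theirs. The groups did not overlap, but by a narrow margin, since low CO2 replicate 4 at 0.470 was barely above normal CO2 replicate 6 at 0.460. The mean went from 0.261 ± 0.146 to 1.21 ± 0.415 (SD, n = 6 each), a ratio of 4.61. After normalization the log2 fold change was 2.72 ± 0.36 (SE), and 3.75% of all probes had a larger one.

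AT1G61990 went the other way. Its deposited intensities were 0.995, 0.878, 1.84, 1.63, 1.29 and 1.20 in normal CO2 replicates 1 to 6. At low CO2 they were 0.254, 0.365, 0.375, 0.237, 0.228 and 0.351. The lowest normal CO2 sample was thus well above the highest low CO2 sample. The normal CO2 mean of 1.30 ± 0.369 was 4.32 times the low CO2 mean of 0.302 ± 0.0690 (SD, n = 6 each). The log2 fold change was -1.66 ± 0.20 (SE), and 9.36% of all probes had a more negative one.

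AT1G62010 behaved much like AT1G61990. Its deposited intensities were 0.651, 0.633, 1.24, 1.38, 0.912 and 1.06 in normal CO2 replicates 1 to 6. At low CO2 they were 0.225, 0.185, 0.334, 0.305, 0.129 and 0.277. Here too each normal CO2 sample was above each low CO2 sample. The mean dropped from 0.980 ± 0.306 to 0.242 ± 0.0775 (SD, n = 6 each), and the log2 fold change was -1.53 ± 0.27 (SE), with 10.5% of all probes below it.

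Separate groups were common on this array. Deposited values did not overlap in 7.24% of all probes with the low CO2 group higher and in 27.3% with it lower, and no more is read from the separation of the 3 genes, which were chosen in this comparison. All 3 genes also stayed separate after normalization, as did 28.0% of all probes.

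**Figure D1:**
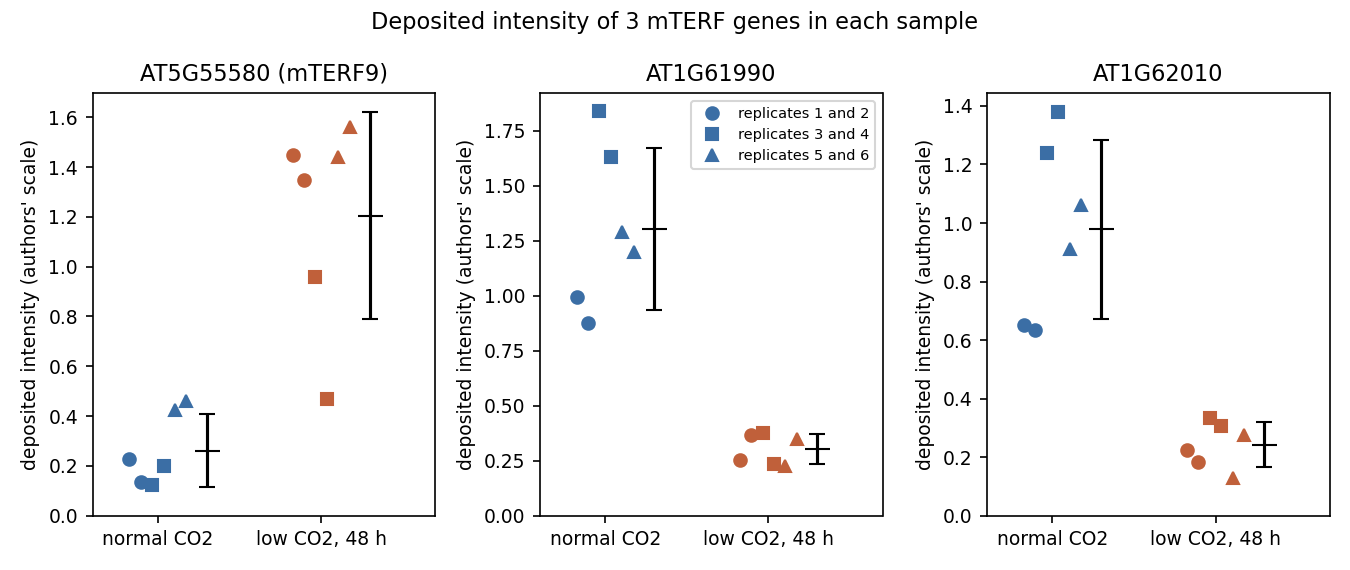
Deposited intensity (authors' linear scale) of the 3 mTERF genes in the 6 normal CO2 samples (blue) and the 6 low CO2 samples (orange). Each point is a sample, its shape marks replicates 1 and 2, 3 and 4, or 5 and 6, and bars give the mean and SD. AT5G55580 is higher at low CO2, with low CO2 replicate 4 at 0.470 close to the normal CO2 samples, while AT1G61990 and AT1G62010 are lower in all low CO2 samples.

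The log2 ratio of 2 probes on one array is free of a factor applied to the whole array, though not of shifts that depend on intensity or on the place of a probe. As the genes were chosen for large changes, the ratios below describe that choice without scaling and test nothing. The within-array log2 ratio of AT5G55580 to AT1G61990 was on average 4.39 higher at low CO2, where samples lay between 3.45 and 5.12 above the normal CO2 mean. Normal CO2 samples themselves ran from -1.44 to 1.08 around that mean. Against AT1G62010 the ratio rose by 4.31 on average, with low CO2 samples between 2.66 and 5.52. The ratio of AT1G61990 to AT1G62010, by contrast, moved by only -0.07, within its SD of 0.18 at normal and 0.49 at low CO2.

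Samples with the same replicate number in both groups deviated together weakly over all probes (r = 0.128 to 0.214). Samples of different number were not compared in this way, so a pairing by number was not tested. Differences between same-numbered samples are given as a description. For AT5G55580 all 6 differences of normalized log2 values were positive, from 1.47 in replicate 4 to 3.83 in replicate 2. For AT1G61990 all 6 were negative, from -2.22 in replicate 4 to -0.94 in replicate 2. For AT1G62010 they ran from -2.27 in replicate 5 to -1.15 in replicate 1. Replicate 4, with the smallest rise of AT5G55580, thus had the largest drop of AT1G61990.

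**Figure D2:**
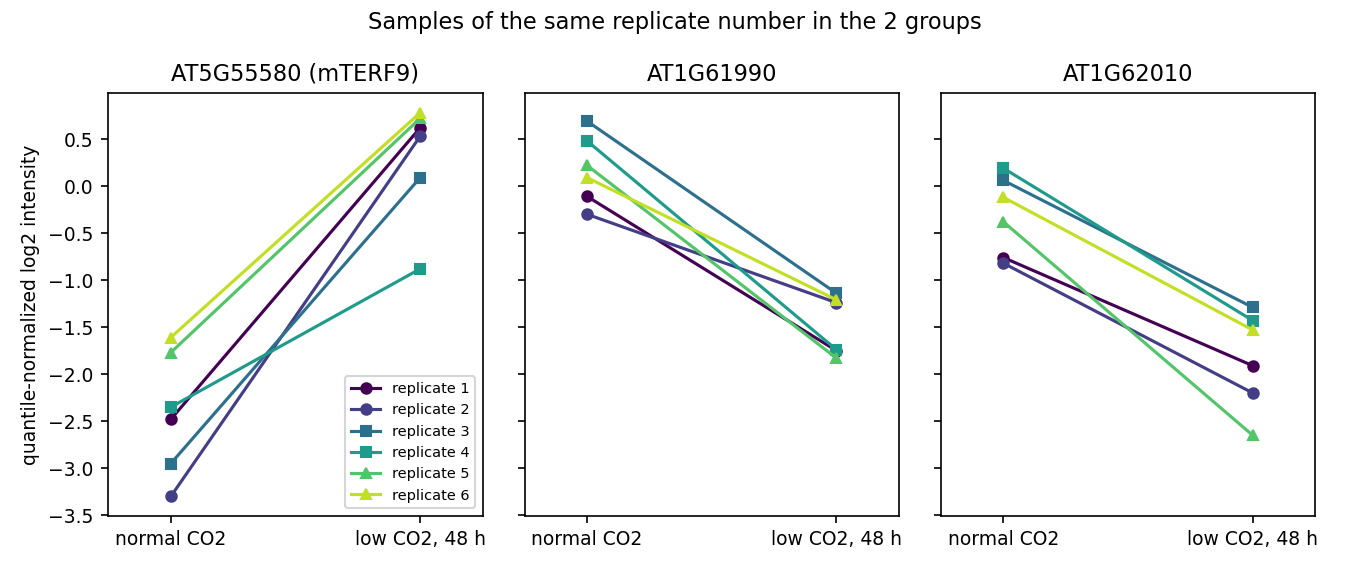
Quantile-normalized log2 intensity of the 3 mTERF genes, with lines that join the normal and the low CO2 sample of the same replicate number. All 6 lines rise for AT5G55580, by 1.47 to 3.83, and all 6 fall for AT1G61990 and for AT1G62010. Any other pairing would give these directions too, as the groups do not overlap.

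Samples of adjacent number mostly lay close together at normal CO2, and the genes differed in which of them were high. At normal CO2, AT1G61990 averaged 0.936 in replicates 1 and 2, 1.73 in replicates 3 and 4 and 1.24 in replicates 5 and 6. AT1G62010 kept the same order, with 0.642, 1.31 and 0.988. AT5G55580 was instead highest in replicates 5 and 6, at 0.443, against 0.181 and 0.160 in the other pairs of samples. At low CO2 its lowest values were those of replicates 3 and 4, with a mean of 0.715 against 1.40 for replicates 1 and 2 and 1.50 for replicates 5 and 6. With samples of adjacent number averaged, 3 against 3, the SE of the log2 fold change was 0.47 for AT5G55580, 0.26 for AT1G61990 and 0.35 for AT1G62010.

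The 2 chromosome 1 genes deviated from their group means together, at a Pearson r of 0.89 over the 6 normal and 0.46 over the 6 low CO2 samples. AT5G55580 and AT1G61990 gave 0.12 and 0.19, and AT5G55580 and AT1G62010 gave 0.30 and -0.55. These coefficients are descriptions over 6 samples that share arrays and resemble each other in adjacent numbers. Over the 12 deviations of both groups, AT1G61990 and AT1G62010 gave an r of 0.66. That was not particular to the 2 neighbours. AT4G26370 gave 0.79 to AT1G61990 and 0.74 to AT1G62010, and LPA19 gave 0.67 and 0.79, both being genes picked below for their like pattern.

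AT1G61990 and AT1G62010 lie close together in the reference TAIR10.1, with 1 protein-coding gene, AT1G62000, between them. The stretch from AT1G61960 to AT1G62010 holds 6 protein-coding genes, 5 of them in the mTERF list used here, and 15 of the 35 genes of that list are on chromosome 1. AT5G55580 is on chromosome 5. None of the 6 protein-coding neighbours on either side of the 2 genes, nor AT1G62000, had a probe of 1 gene. Whether transcripts of 1 cluster gene bind the probe of another was not tested.

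A further probe was listed for AT5G55580 together with AT1G78930, and it moved against the mTERF9 probe. Its deposited intensities were 1.07, 1.14, 0.957, 0.912, 0.872 and 0.829 in normal CO2 replicates 1 to 6, and 0.365, 0.466, 0.280, 0.418, 0.342 and 0.278 at low CO2. Every low CO2 sample was below every normal CO2 sample, as in 27.3% of all probes, with a log2 fold change of -0.96 ± 0.16 (SE). Which of the 2 transcripts this probe read in either group was not tested. The rise of AT5G55580 therefore rests on a single probe.

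AT1G61990 was also listed on a probe shared with AT1G61960, AT1G62490 and AT3G46950. Its deposited intensity averaged 0.519 ± 0.235 under normal and 0.301 ± 0.119 under low CO2 (SD, n = 6 each), with overlapping groups. Replicate 2 stood low in both groups, at 0.0746 and 0.0974. The log2 fold change of the shared probe was -0.01 ± 0.61 (SE), and that value hangs on replicate 2. It was -0.57 ± 0.37 without normal CO2 replicate 2, 0.29 ± 0.60 without low CO2 replicate 2 and -0.64 without scaling between arrays. The probe thus gave no settled direction to set beside that of AT1G61990 alone. AT1G62010 was on no shared probe.

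The other 4 probes listed with several genes, all of the mTERF list, named none of the 3 genes. The probe of AT1G62085, AT1G62110 and AT1G56380 fell by 1.39 ± 0.14 on the log2 scale (SE, limma adjusted p = 1.60e-05; -0.92 after the correction for probe numbering described below), from 6.42 ± 1.39 to 2.38 ± 0.303 in deposited intensity (SD, n = 6 each). The first of 2 probes of AT1G61980 and AT1G61970, the cluster neighbours of AT1G61990, fell, with a change of -1.00 ± 0.18 on the log2 scale (SE, limma adjusted p = 0.000798). After that correction it was at -0.56 (limma adjusted p = 0.0380). With samples of adjacent number averaged it passed (limma adjusted p = 0.0355), but not with the correction as well (limma adjusted p = 0.180). The second was at -3.67 ± 1.44 (limma adjusted p = 0.0592), and its size partly rests on a value of 0 in low CO2 replicate 2. Without that sample it was at -2.24 ± 0.52 and passed (limma adjusted p = 0.00644). It passed in 9 of the 24 other fits, but not with samples of adjacent number averaged (limma adjusted p = 0.0931) or after that correction (limma adjusted p = 0.107). Its deposited values, only 0 to 0.118 at low CO2, did not overlap between the groups, as in 27.3% of all probes with the low CO2 group lower. The probe of AT1G21150, AT5G64950 and AT5G07900 was at -0.09 ± 0.44 (limma adjusted p = 0.884).

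Of the 32 other genes of the mTERF list, 5 had a probe of 1 gene, and 3 of them changed by limma with a Benjamini-Hochberg adjusted p under 0.05, 2 upward and 1 downward. Of all probes 42.4% changed, 18.9% upward and 23.5% downward, and 5 genes are too few to set their count against these shares. The median log2 fold change of the 5 was -0.34, against -0.05 for all probes. Family membership of these 5 genes comes from a list drawn up for this description, as the reference gives them no family name.

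AT4G09620 had the clearest rise among these 5. Its deposited intensities were 1.05, 1.09, 0.768, 1.33, 0.799 and 0.806 in normal CO2 replicates 1 to 6, and 2.94, 3.34, 2.71, 3.58, 2.58 and 2.80 at low CO2. No sample of one group came near the other, and 7.24% of all probes were separate with the low CO2 group higher. The log2 fold change was 1.83 ± 0.17 (SE, limma adjusted p = 1.06e-05), and it passed the threshold in each of the 24 other fits tried.

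AT3G18870 also rose, but its groups overlapped in deposited intensity, with 0.221 to 0.594 at normal and 0.486 to 0.845 at low CO2. Its log2 fold change was 1.12 ± 0.24 (SE, limma adjusted p = 0.00305). Without scaling between arrays it was 0.66 (limma adjusted p = 0.0574), and with samples of adjacent number averaged the rise did not pass (limma adjusted p = 0.0903). After the correction for probe numbering described below it was 0.67 (limma adjusted p = 0.00799), and with averages as well it did not pass (limma adjusted p = 0.132).

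AT3G46950 fell, from 0.828 ± 0.204 to 0.332 ± 0.0638 in deposited intensity (SD, n = 6 each), a change of -0.80 ± 0.20 on the log2 scale (SE, limma adjusted p = 0.00774). The call was lost with samples of adjacent number averaged (limma adjusted p = 0.105), as were many, since 18.0% of all probes passed there. It was lost too after a correction for the position of probes in the array numbering, described below, where its log2 fold change was -0.17 (limma adjusted p = 0.465) and 37.5% of all probes passed.

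The remaining 2 genes did not pass the threshold. AT1G62150 was at 1.59 ± 0.459 and 0.848 ± 0.111 in deposited intensity (SD, n = 6 each), and changed by -0.57 ± 0.22 on the log2 scale (SE, limma adjusted p = 0.0594). It passed in 7 of the 24 other fits, among them those without normal CO2 replicate 1 (-0.68, limma adjusted p = 0.0286) or without normal CO2 replicate 2 (-0.67, limma adjusted p = 0.0369). After the correction for probe numbering its direction turned, to 0.08 (limma adjusted p = 0.850). AT1G79220 was at 0.847 ± 0.104 and 0.495 ± 0.139, and changed by -0.34 ± 0.18 on the log2 scale (SE, limma adjusted p = 0.148). It passed with the replicate number as a block (limma adjusted p = 0.0366), a fit in which 45.9% of all probes passed. It did not pass with samples of adjacent number averaged (limma adjusted p = 0.380), and after the correction for probe numbering it was at -0.02 (limma adjusted p = 0.942). Neither gene's deposited values overlapped between the groups, which held for 27.3% of all probes with the low CO2 group lower. After normalization the groups of both genes overlapped. Without scaling between arrays both passed, at -0.86 (limma adjusted p = 0.00404) and -0.82 (limma adjusted p = 0.00416), where 48.7% of all probes did.

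**Figure D3:**
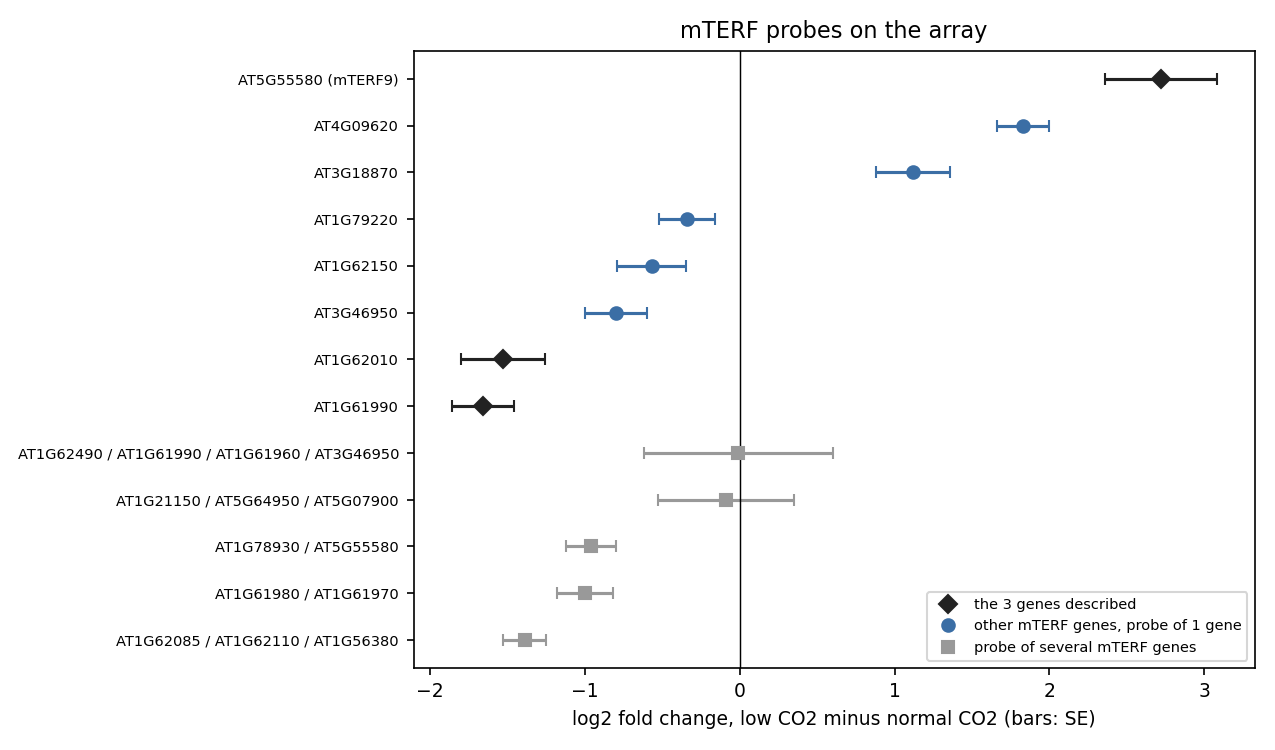
Log2 fold change of low over normal CO2 with its SE for 13 probes of mTERF genes after quantile normalization. Diamonds are the 3 genes described, circles the 5 other genes with a probe of 1 gene, and squares probes shared by several mTERF genes. A further shared probe, which held a value of 0, is left out. The mTERF9 probe is at 2.72, while the probe that AT5G55580 shares with AT1G78930 is at -0.96.

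Of 29 genes of organelle transcription, the sigma factors and organelle RNA polymerases among them, none had a probe of 1 gene. Of 29 genes of organelle RNA processing, 1 had such a probe, AT5G19210. It was dim and uneven, between 0.000704 and 0.489 at normal and between 0 and 0.436 at low CO2, and was at -1.27 ± 2.02 on the log2 scale (SE, limma adjusted p = 0.651). The mTERF genes can therefore not be set beside the rest of the organelle transcription machinery here.

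Patterns most like those of the 3 genes were sought among 500 other genes with a probe of 1 gene and a mean intensity above the 25th percentile, by Pearson r over the 12 normalized samples. For AT5G55580 the nearest were AT5G46560 (r = 0.959), AT1G50880 (0.945) and AT4G39760 (0.939). For AT1G61990 they were AT4G14050 (0.970), AT4G26370 (0.968) and LPA19 (0.965), whose product serves photosystem II assembly. For AT1G62010 they were AT4G26370 (0.943), LPA19 (0.935) and LpxA (0.933), which encodes an enzyme of lipid A synthesis. AT1G61990 ranked 4 among the genes nearest to AT1G62010 (r = 0.928), and AT1G62010 ranked 13 among those nearest to AT1G61990. AT5G55580 ran opposite to both, with r of -0.838 to AT1G61990 and -0.830 to AT1G62010.

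Much of that likeness is the difference between the groups, which the choice of the genes used. With group means taken off, r over the 12 deviations was 0.70, 0.61 and 0.54 for the 3 genes nearest to AT5G55580. It was 0.73, 0.79 and 0.67 for those nearest to AT1G61990, and 0.74, 0.79 and 0.69 for those nearest to AT1G62010. As these genes were picked by r over the same 12 samples, that choice raises their r of deviations. The values are not set against those of the other candidates, so no likeness beyond the group difference is read from them. High r was also not rare, since 2.40% of the 500 genes exceeded 0.9 for AT5G55580, 4.80% for AT1G61990 and 2.80% for AT1G62010.

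Probes were also grouped by their place in a repeat of the probe numbering. The length of the repeat was a fixed setting, with 16 repeats covering the numbering. Whether fold changes recur at that length was not tested. Among the mTERF probes, the median log2 difference of a probe's place ran from -0.64 for AT1G62150 to 0.46 for AT3G18870. The probes of AT1G61990 and AT1G62010 are 12 numbers apart. Of the 10 probes nearest in number, 8 lay below 0 around AT1G61990, with a median log2 fold change of -0.70, and 7 around AT1G62010, with a median of -0.62. Around AT5G55580, 8 of 10 lay above 0, with a median of 0.26. Over all probes the median log2 fold change was -0.05, and 10 probes are too few to read a local shift from. With the median deviation of the same place in the repeat taken off, the log2 fold change was 2.39 for AT5G55580, -1.06 for AT1G61990 and -1.11 for AT1G62010. The change of AT1G61990 was thus 0.60 smaller in size, that of AT1G62010 0.42 and that of AT5G55580 0.33, and all kept their direction. The shared probe of AT5G55580 and AT1G78930 was then at -0.35 ± 0.20 (SE).

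**Figure D4:**
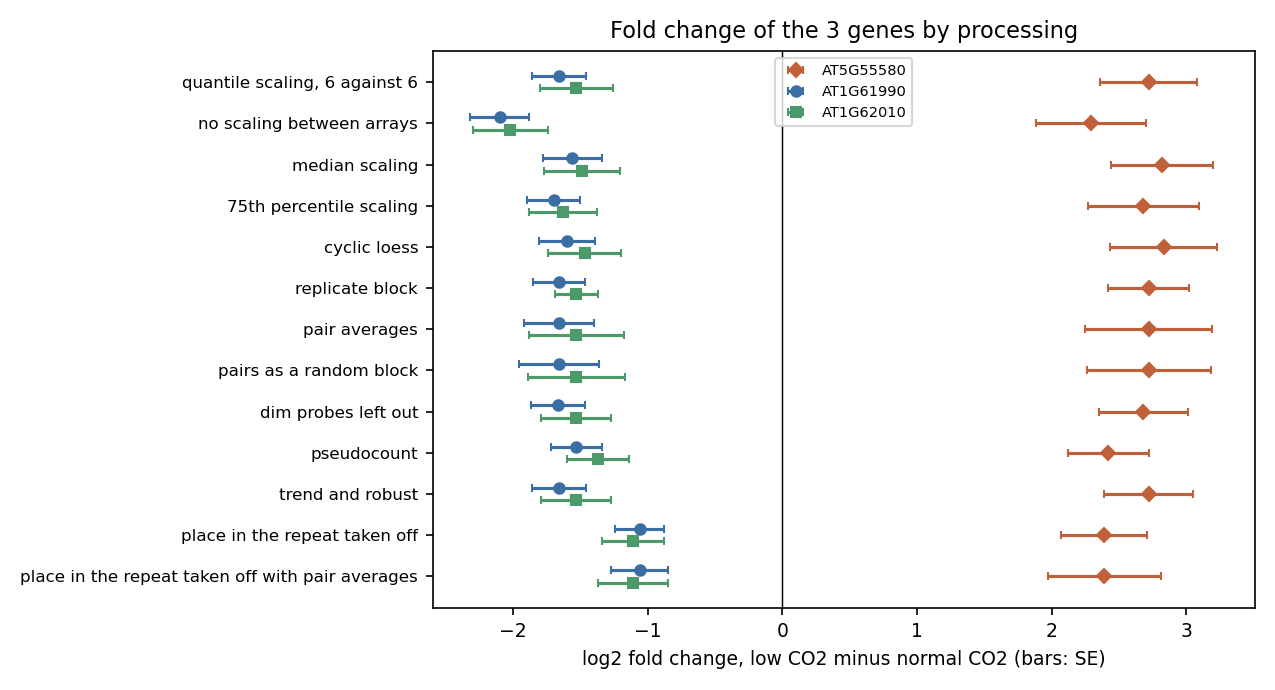
Log2 fold change of low over normal CO2 with its SE for the probes of 1 gene of the 3 mTERF genes under 13 ways of processing, without the fits that left out a sample. AT5G55580 lies between 2.29 and 2.83, AT1G61990 between -2.10 and -1.06 and AT1G62010 between -2.02 and -1.11. The shared probes, at -0.96 for AT5G55580 and -0.01 for AT1G61990, are not drawn.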

How the data were processed

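Array intensities of 12 samples, 6 per group by sample title, were used as the authors deposited them, on a linear scale with values of 0 and an upper bound of 100. For the scanner, the background correction, the scaling and the genome build, the methods are not given in the sources consulted. Of all values 5.55% were 0. Probe genes came from a platform annotation, which lists 692 probes with 1 gene, 870 with several and leaves 1877 unnamed. All 3 genes matched TAIR10.1, which was used for names and gene order only.

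Each 0 was replaced by its array's smallest positive value, log2 was taken and arrays were quantile normalized. Groups were compared over all 3439 probes by lmFit and eBayes of limma 3.58.1 under R 4.3.3, two-sided and with no block, with Benjamini-Hochberg adjustment at 0.05. The procedure was run on simulated data with noise independent between samples. Such data lack the likeness of samples of adjacent number, so this run cannot check the p-values under that likeness. Same-numbered samples correlated weakly, in all 6 pairs at over 0.1 (0.128 to 0.214). Samples of different number were not compared across the groups, so whether the titles' numbers pair the samples was not tested.

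Alternatives were no, median, 75th percentile and cyclic loess scaling, a replicate block, averages of adjacent numbers, these pairs as random effects, leaving out probes below the 25th percentile of mean intensity, adding 0.0493 before the log, eBayes with trend and robust set, each sample left out, shared probes, and the place in the repeat of the probe numbering taken off in 48 bins (per sample, the median deviation from the probe mean). The genes, the lists and the length of the repeat were chosen with earlier results of these data known. Named were the 3 genes, all listed mTERF and organelle genes with a probe of 1 gene, and the 3 genes nearest in pattern to each. The number of arrays limits the precision.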

Additional observations from a re-analysis of the deposited data

Results flagged for a closer look

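Single samples far from the rest of their group were sought on normalized log2 values in 44 sets of 6, the shared mTERF probes included, and 5 were found where chance gives about 2.2. None of AT5G55580, AT1G61990 and AT1G62010 had such a sample on its own probe in either group.

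Replicate 2 stood low in both groups on the probe shared by AT1G62490, AT1G61990, AT1G61960 and AT3G46950, at 0.0746 against 0.518 to 0.762 at normal CO2 (0.792 of the whole range) and at 0.0974 against 0.260 to 0.416 at low CO2 (0.659). Low CO2 replicate 2 was also at 0 on a probe of AT1G61980 and AT1G61970, where the other low CO2 samples held 0.0056 to 0.118 (0.732). That fraction is of normalized log2 values, where the replaced 0 was at -12.54 and the next sample at -5.39. It thus depends on how the 0 was replaced, and in deposited intensity the gap was small. On the probe of AT1G62085, AT1G62110 and AT1G56380, normal CO2 replicate 3 was high, at 9.10 against 5.42 to 6.69 (0.693). For AT5G19210, the only organelle RNA processing gene with a probe of 1 gene, normal CO2 replicate 3 was at 0.000704, while the other 5 samples lay between 0.211 and 0.489 (0.918).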

How the results depend on the processing

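Samples of adjacent number resembled each other (limma's consensus correlation 0.567), so p-values and SEs of the fit of 6 against 6 are likely too small. Of all probes 1457 changed, 618 with such samples averaged, and 454 with averages and the place in the numbering taken off, a setting added after seeing the data. Without scaling between arrays 373 probes were higher and 1302 lower, against 649 and 808. With a replicate block 1578 changed, and of the mTERF genes tested the call of AT1G79220 alone was altered. Of the 5 mTERF genes not chosen by this comparison 3 passed, 1 with averages, 1 with averages and the place taken off, and 3 to 4 with 1 sample left out. Counts that include the 3 chosen genes (6, then 3 with averages and the place taken off, and 6 to 7) are largely set by that choice and support nothing. With 1 sample left out, 1332 to 1425 probes passed.

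AT1G61990 was at -2.10 and AT1G62010 at -2.02 without scaling, and AT1G61990 at -1.06 with the place taken off, with or without averages. On probes listed with several genes AT5G55580 was reversed, at -0.96, and AT1G61990 was at -0.01. The cause was not tested. With 1 sample left out, AT5G55580 ran from 2.56 to 2.93, AT1G61990 from -1.77 to -1.55 and AT1G62010 from -1.64 to -1.36. AT1G62150 turned to 0.08 with the place taken off, with or without averages, and AT5G19210, which ran from -2.74 to 0.25 with 1 sample left out, to 0.25 without low CO2 replicate 3, which held the 0. Neither passed in either case.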
